A study of Mus musculus with 2 samples.

Results

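Ubiquitin-conjugating enzymes, the E2 enzymes, were examined as the genes whose symbol begins with Ube2. Members were chosen by name, as all probe sets of the array whose only gene symbol in the platform annotation starts with Ube2. This gave 33 of the 18193 genes that could be named in this way. They held 81 probe sets, out of 34945 with a single gene symbol and 45037 that were not array controls. By Entrez identifier all 33 genes were found in the RefSeq gene table, which lists 32 as protein coding and the other, Ube2d-ps, as a long noncoding RNA. Ube2cbp met the rule by its symbol but is also named Ube3d in that table. Ube2l3 was read only by 4 probe sets shared with 4 predicted genes, so it was not a member. Ube2m, a NEDD8 enzyme gene, was not analysed here.

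The cells were G1E, a mouse erythroid progenitor line that lacks the transcription factor GATA-1. Both groups carried ER-GATA-1(V205G), a form of GATA-1 defective in binding the cofactor FOG-1 and made dependent on estradiol by fusion to an estrogen receptor domain. The estradiol group had been given 1 µM estradiol for 24 h, which activates the fusion. The untreated group was the same kind of cell before treatment, at 0 h. The comparison addressed which transcripts respond to a GATA-1 that lacks FOG-1 binding. Each group was 1 array of biotin-labelled total RNA, so no p-value or error between cultures could be had, and no difference below has a replicate check. The activated mutant, estradiol itself and 24 h of culture cannot be told apart.

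Ubiquitin is attached to proteins by a cascade. An activating enzyme (E1) charges ubiquitin and passes it to a cysteine of an E2, and the E2 works with a ligase (E3) that binds the target. The E2 helps set which linkage the ubiquitin chain has, and linkage steers the target to the proteasome or to signalling, membrane traffic or repair. A few E2 enzymes carry the ubiquitin-like proteins NEDD8 or ISG15 in place of ubiquitin. In maturing red cells the ubiquitin system helps clear organelles and proteins that the finished cell does not keep.

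Most E2 genes differed little between the arrays, and 2 stood out, both higher with estradiol. Ube2l6, the E2 gene for ISG15, was 3.33-fold higher (log2 ratio 1.74), and Ube2j1, an E2 gene of the endoplasmic reticulum, was 1.66-fold higher (0.74). At 1.5-fold or more, 2 of 27 measured members (7.41%) were higher, beside a background of 7.11% over the 10240 genes measured. Ube2l6 alone was at least 2-fold higher, 3.70% of the members, beside 2.04% of all genes. At least 1.5-fold lower were 0 of 27 members, beside 4.85% of all genes, and at least 2-fold lower also 0, beside 1.10%. The share of members called higher was therefore near that of genes in general. Among all genes called at 1.5-fold, 728 were higher and 497 lower. Scaled to a common median the split was 520 higher and 773 lower, with the same 2 members called. In bulk RNA, fewer cells of a type and less RNA per cell cannot be told apart.

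A gene was called measured when its brightest probe set, by mean signal, reached a floor of 95.2 on both arrays. That floor is the 50th percentile of all signals. A gene's value was the log2 ratio of estradiol over untreated for this probe set. As a measure of noise, it was set beside the pooled standard deviation of log2 ratios between probe sets of 1 gene, 0.25 over 12514 probe sets of 4586 genes. Taken 2 times, this is 0.50, or 1.42-fold. It covers probe noise and transcript forms, not differences between cultures. Within the members the same standard deviation was 0.21, over 57 probe sets of 21 genes.

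**Figure D1:**
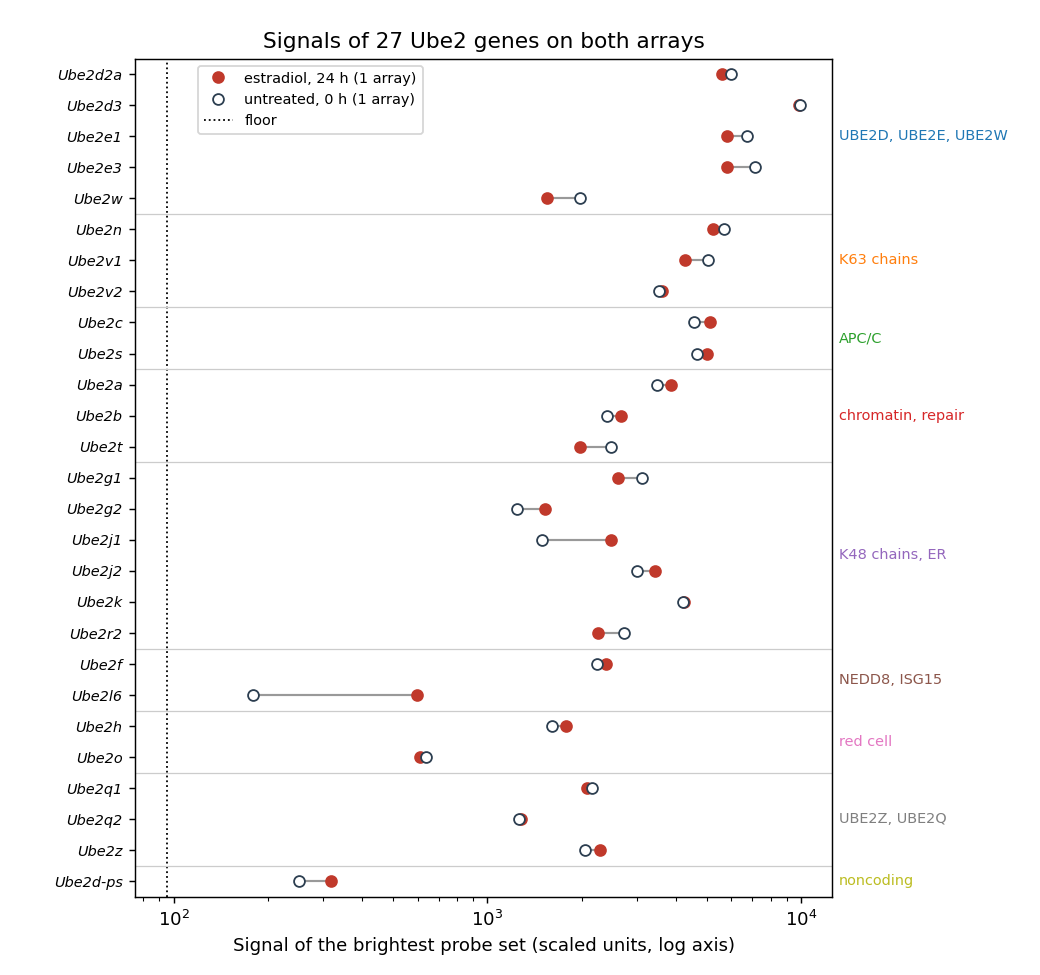
Signal of the brightest probe set of each of the 27 measured Ube2 genes (log axis, scaled units) on the estradiol array (filled) and the untreated array (open), grouped by role, with the floor of 95.2 dotted. Most pairs nearly coincide, while Ube2l6 lies at 599 with estradiol and 179.7 untreated, and Ube2j1 at 2481 with estradiol and 1490.3 untreated.

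The 2 genes past 1.5-fold have these promoter stretches, the 250 bases before the annotated start in RefSeq, build GRCm38.p6. They are shown because GATA-1 binds GATA sequences and ER-GATA-1(V205G) is activated by estradiol. Capitals mark the letters GATA on either strand.
Ube2l6, chr2:84798578-84798827, plus strand: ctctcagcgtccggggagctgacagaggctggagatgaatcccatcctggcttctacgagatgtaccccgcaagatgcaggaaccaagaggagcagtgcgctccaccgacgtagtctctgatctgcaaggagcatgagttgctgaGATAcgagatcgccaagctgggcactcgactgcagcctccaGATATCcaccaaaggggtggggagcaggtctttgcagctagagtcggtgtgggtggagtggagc
Ube2j1, chr4:33031130-33031379, plus strand: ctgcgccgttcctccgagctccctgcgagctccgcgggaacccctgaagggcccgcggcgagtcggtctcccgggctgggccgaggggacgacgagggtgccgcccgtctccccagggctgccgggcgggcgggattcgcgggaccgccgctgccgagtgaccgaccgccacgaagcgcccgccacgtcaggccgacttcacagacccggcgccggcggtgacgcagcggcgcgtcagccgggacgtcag

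The Ube2l6 stretch held 3 GATA matches, of which 2 overlap on opposite strands, and the Ube2j1 stretch held 0. Of all 32851 promoter stretches of this length in the table, 53.6% held at least 1 such match. The longer form AGATAA, searched on both strands and counted also within the shorter one, was in neither stretch and in 9.99% of all. The table held 36 such stretches for 27 of the 33 members, of which 8 had the letters GATA and 1 had the longer form. These are matches of letters and show nothing about binding.

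Ube2l6 encodes the E2 that carries ISG15, a ubiquitin-like protein made in response to interferon, and it can also carry ubiquitin. Its only probe set read 599 with estradiol and 179.7 untreated. Of 10240 measured genes its log2 ratio ranked 37 from the highest, and it lay beyond 2 standard deviations (0.54) for genes of the middle tertile of signal. The untreated signal was dim, so whether a ratio is formed, rather than a bound, depends on the floor. Raised to the 70th percentile, a signal of 319, the floor lies above the untreated value and the gene is at least 1.88-fold higher.

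Other genes of the ISG15 system went both ways. Usp18, which removes ISG15 from proteins, read 267 with estradiol and 123 untreated (2.16-fold higher) on a single measured probe set. Both signals were dim and lay below the floor of 319 at the 70th percentile, so its ratio also depends on the floor. Uba7, the E1 for ISG15, read 687 with estradiol and 484 untreated (log2 ratio 0.51), and its 3 measured probe sets ran from 0.51 to 1.08. Herc6, the main ISG15 ligase gene in mouse, had a log2 ratio of 0.26. Trim25, a ligase that is itself a target of ISG15, had -0.31. The median over these 4 genes was 0.38, and Isg15 itself was not analysed here.

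E2 genes of the endoplasmic reticulum and of K48-linked chains, the linkage that targets proteins to the proteasome, came next. Ube2j1 and Ube2j2 encode membrane-anchored enzymes, and Ube2g2 a soluble one, that ubiquitinate misfolded proteins leaving the endoplasmic reticulum. Ube2j1 read 2481 with estradiol and 1490.3 untreated on one probe set (0.74), and 2223 with estradiol and 1599 untreated on the other (0.47). Both probe sets were higher with estradiol and both lay beyond 0.41, which is 2 standard deviations for genes in the highest tertile of signal. The gene ranked 454 of 10240 from the highest.

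Ube2g2 read 1531 with estradiol and 1244 untreated (0.30), with 0.22 on its other probe set. Ube2j2 read 3434 with estradiol and 3004 untreated (0.19), with 0.49 on a dim one. All 6 measured probe sets of these 3 endoplasmic reticulum genes were thus above 0, though only the brightest of Ube2j1 passed 1.5-fold. Above 0 were also 42 of the 63 measured probe sets of all members, and 9359 of 18186 over all genes. Ube2g1, which extends chains on cullin-RING targets, was on the other side. It read 2619 with estradiol and 3121 untreated (-0.25), with -0.26 on its second probe set.

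Probe sets disagreed for Ube2r2 and Ube2k. Ube2r2, a close relative of the cullin-RING enzyme gene Cdc34, read 2253 with estradiol and 2719 untreated (-0.27) on its brightest probe set. On the other it read 723 with estradiol and 416 untreated (0.80), a gap of 1.07 and the only one above 1 among the members. Ube2k, whose enzyme builds K48 chains, read 4245 with estradiol and 4221 untreated (0.01) on its brightest. Its other 3 measured probe sets had 0.18, 0.30 and 0.61, the last past 1.5-fold at signals of 293 with estradiol and 192 untreated.

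**Figure D2:**
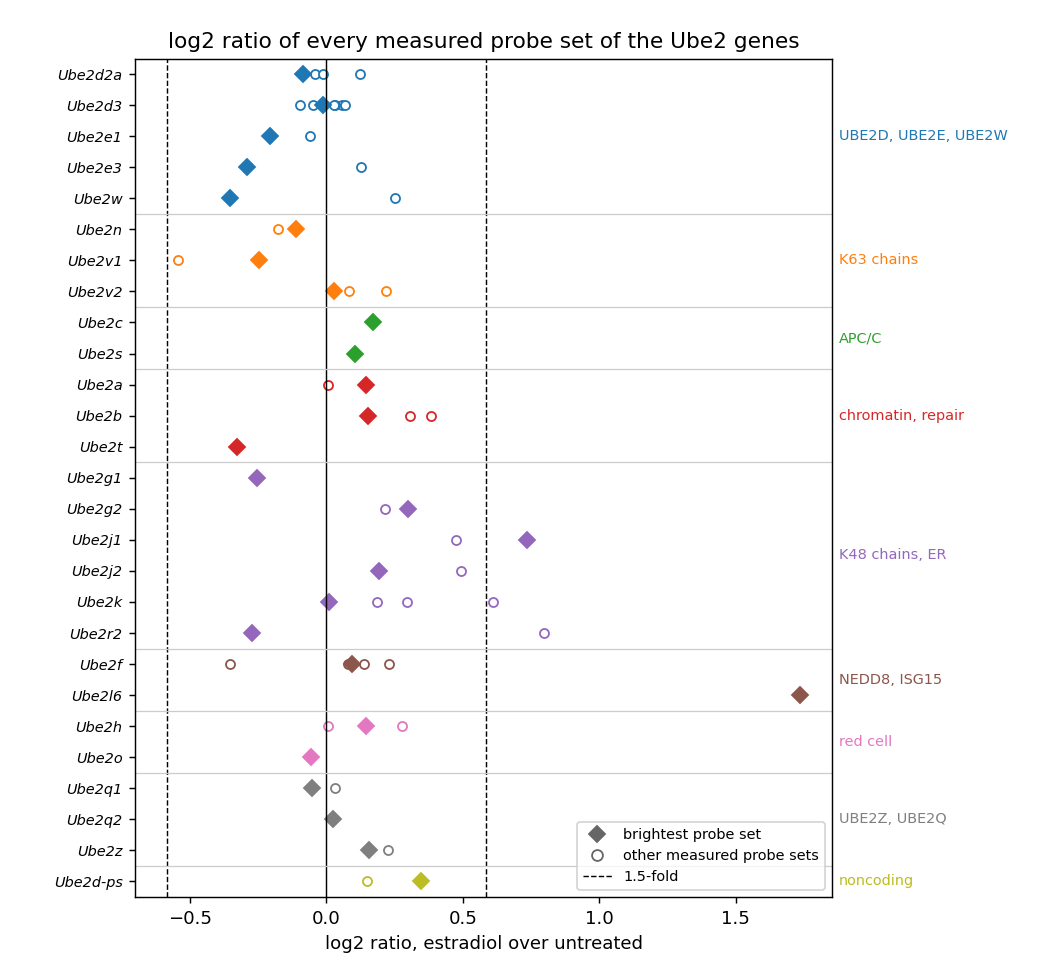
log2 ratio of estradiol over untreated for the 63 measured probe sets of the Ube2 genes, by gene and role, with diamonds for the brightest probe set of a gene, open circles for its others and dashed lines at 1.5-fold. The probe sets of Ube2r2 lie 1.07 apart, those of Ube2k and Ube2w 0.60 apart, and Ube2l6 has a single one at 1.74.

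Over all measured probe sets, 4 of 63 members (6.35%) were at least 1.5-fold higher, beside 7.52% of all 18186 measured probe sets with a single gene. These were 1 each of Ube2l6, Ube2j1, Ube2r2 and Ube2k. None of the 63 was 1.5-fold lower, beside 4.88%. The lowest was a Ube2v1 probe set at -0.54. In 14 of the 21 genes with more than 1 measured probe set, all lay on the same side of 0, and in 4 they lay more than 0.50 apart. Of the 81 probe sets 9 have names ending in _s_at or _x_at, which Affymetrix gave to sets that can also read other transcripts. The Ube2d genes and the pair Ube2v1 and Ube2v2 are close copies, and whether their probe sets read each other's transcripts was not tested.

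The priming enzymes, which place the first ubiquitin with many different ligases, were within 1.5-fold on every measured probe set. Ube2d3 read 9863 with estradiol and 9954 untreated (-0.01), and its 7 probe sets stayed between -0.10 and 0.07. Ube2d2a read 5619 with estradiol and 5968 untreated (-0.09), with 4 measured probe sets from -0.09 to 0.12. Across their measured probe sets, these 2 genes had almost equal signals on both arrays.

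Ube2e1 and Ube2e3, whose enzymes have an extended amino-terminal end, were somewhat lower with estradiol on their brightest probe sets. Ube2e1 read 5816 with estradiol and 6710.2 untreated (-0.21), and Ube2e3 read 5823 with estradiol and 7133 untreated (-0.29). Their second, dim probe sets had -0.06 and 0.13. None of these values lay beyond 0.41, the limit for the highest tertile of signal.

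Ube2w, which attaches ubiquitin to the amino terminus of proteins, had 2 probe sets of nearly equal mean signal, 1762.8 and 1762.5. The first read 1548 with estradiol and 1978 untreated (-0.35) and the second 1914 with estradiol and 1611 untreated (0.25). The lowest ratio of any member gene, -0.35, thus rests on a difference of signal too small to choose between them. Ube2d1, Ube2d2b and Ube2e2 were below the floor on both arrays, at 1.10, 15.5 and 41.7 with estradiol and 3.2, 3.0 and 39.4 untreated. No ratio was formed for them. Ube2d-ps, a noncoding relative, read 319 with estradiol and 251 untreated (0.35), with 0.15 on its other probe set.

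Genes for K63-linked chains, which serve signalling and repair, were within 1.5-fold on every measured probe set. Ube2n encodes the catalytic subunit of this enzyme, and Ube2v1 and Ube2v2 encode partners that lack the active cysteine. Ube2n read 5249 with estradiol and 5670.5 untreated (-0.11), with -0.18 on its other probe set. Ube2v1 read 4257 with estradiol and 5052 untreated (-0.25), and 2943 with estradiol and 4293 untreated (-0.54) on a probe set named _s_at. That second value lay beyond 0.41, on the lower side, and the first did not. Ube2v2 had 0.03, 0.08 and 0.22 on its measured probe sets, the brightest at 3607 with estradiol and 3539 untreated.

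The cell cycle enzymes differed little. Ube2c starts and Ube2s extends the ubiquitin chains that the anaphase promoting complex builds to end mitosis. Ube2c read 5143 with estradiol and 4570 untreated (0.17), and Ube2s read 5025 with estradiol and 4670.2 untreated (0.11). Ube2t, the E2 of the Fanconi repair pathway, was on the lower side at 1972 with estradiol and 2476 untreated (-0.33). A second Ube2t probe set read 114 with estradiol and 74.7 untreated, below the floor, a bound of at least 1.19-fold higher. Each of these 3 genes had 1 measured probe set, and none was past the limit of 0.41.

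Ube2a and Ube2b, the paired RAD6 enzymes of histone ubiquitination and damage tolerance, were alike in having small positive ratios. Ube2a read 3850.1 with estradiol and 3486 untreated (0.14), with 0.00 on its other probe set. Ube2b read 2673 with estradiol and 2403 untreated (0.15), with 0.30 and 0.38 on dimmer ones. The ratios of Ube2b were above 0 on all 3 measured probe sets.

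The E2 genes tied to red cell maturation did not stand out. Ube2o encodes a large enzyme that acts as both E2 and E3 and removes ribosomal proteins in mouse reticulocytes. Its probe set read 611 with estradiol and 637 untreated (-0.06). Ube2h, the E2 of the CTLH ligase, read 1780 with estradiol and 1612 untreated (0.14), with 0.00 and 0.28 on its other measured probe sets. Both E2 genes lay within 1.5-fold. Among 5 erythroid markers on the same arrays, Alas2 was 12.1-fold, Slc4a1 1.82-fold, Klf1 1.54-fold and Hba-a1 1.40-fold higher. The other marker, Epor, was 1.10-fold lower.

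The remaining measured members were also within 1.5-fold. Ube2f, a NEDD8 enzyme for cullin 5, read 2385 with estradiol and 2236 untreated (0.09), with 5 measured probe sets from -0.35 to 0.23. Ube2z, which works with the E1 enzyme UBA6, read 2283 with estradiol and 2048 untreated (0.16), with 0.23 on its other. Ube2q1 had -0.05 and 0.03, and Ube2q2 had 0.02. Ube2cbp read 71.0 with estradiol, below the floor, and 114 untreated, a bound of at least 1.19-fold lower. Ube2ql1 and Ube2u were below the floor on both arrays. The 4 shared probe sets that read Ube2l3 had log2 ratios from -0.13 to 0.07.

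As a whole the members had a median log2 ratio of 0.02, beside 0.00 for all measured genes, with 15 above 0 and 12 below. Their interquartile range ran from -0.16 to 0.16, against -0.20 to 0.22 for all genes. Within 1.5-fold lay 92.6% of the members and 88.0% of all genes. Beyond 2 standard deviations for genes of like signal were 2 of 27 (7.41%), beside 14.6% of all measured genes. After Ube2l6 and Ube2j1 the next highest was Ube2d-ps at 0.35, so no member lay between 0.35 and 0.74. Under all 5 scalings 10 members were above 0 and 10 below 0. A common median shifts all genes alike by an amount that puts the small ratios of Ube2f, Ube2k, Ube2q2, Ube2s and Ube2v2 below 0. Ube2d3, at -0.01, was up to 0.03 under other scalings, and for Ube2w another of its probe sets became the brightest under quantile normalization and loess.

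**Figure D3:**
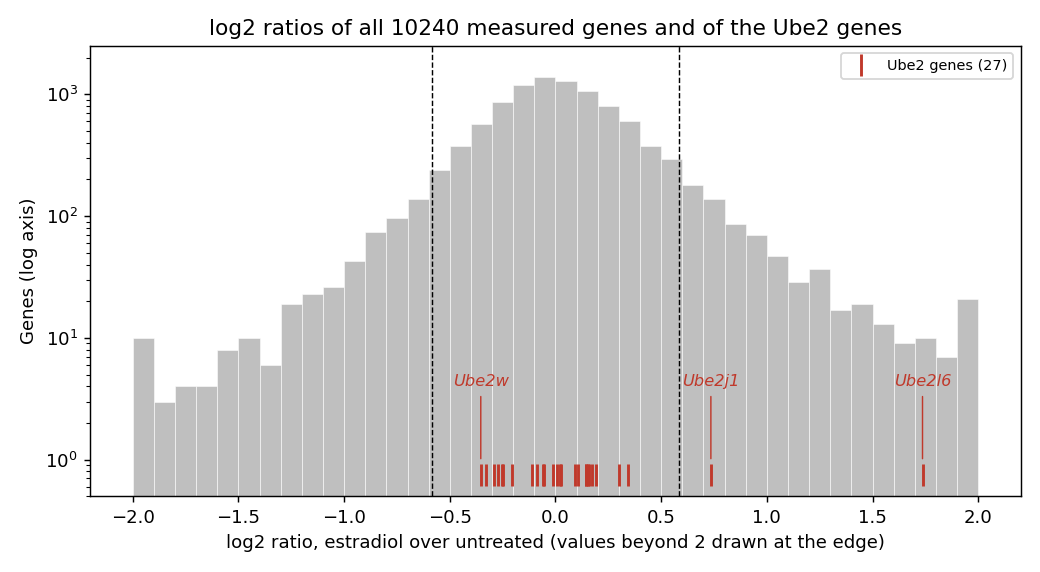
Histogram of log2 ratios, estradiol over untreated, of all 10240 measured genes (grey, log axis, values beyond 2 drawn at the edge), with the 27 Ube2 genes as red ticks and dashed lines at 1.5-fold. The ticks run from -0.35 to 0.35 apart from Ube2j1 at 0.74 and Ube2l6 at 1.74.

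Other genes of the pathway were taken from 10 lists covering E1 enzymes, ubiquitin-like proteins, further E2 genes, and ligases with associated proteins. Among the 97 that were measured, 5 (5.15%) passed 1.5-fold on the higher side, beside 7.11% of all genes, and 1 (1.03%) on the lower, beside 4.85%. Their median log2 ratio was 0.01. Of 7 E1 genes none passed 1.5-fold on its brightest probe set (median -0.17), with Uba6 at 1196 with estradiol and 1636 untreated (-0.45). Of 4 ubiquitin-like genes none did (median 0.08), with Ufm1 at 0.47 and Nedd8 at -0.21. The genes of ubiquitin itself were not analysed here.

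Among E2 genes and E2-like genes under other names, Tsg101 and Aktip differed in opposite directions. Tsg101, a sorting protein with an inactive E2 fold, read 2735 with estradiol and 1690.3 untreated (1.62-fold higher). Aktip, another inactive E2 relative, read 164 with estradiol and 335 untreated (2.05-fold lower), each on 1 probe set. Cdc34, Birc6, Ufc1, Atg3, Atg10 and Uevld were within 1.5-fold on their brightest probe sets, and the median of the 8 genes was -0.10. The 5 measured probe sets of Birc6 ran from -0.69 to 0.49, the lowest past 1.5-fold.

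The CTLH ligase, which works with Ube2h, had 2 of 11 measured genes at least 1.5-fold higher, beside 7.11% of all genes, and 0 lower, beside 4.85%. Ypel5 read 803 with estradiol and 402 untreated (log2 ratio 1.00, 0.65 on its other probe set). Gid8 read 3008 with estradiol and 1680.2 untreated (0.84, with 3 measured probe sets from 0.66 to 0.84). Armc8 had 0.01 on its brightest probe set, and its 5 measured probe sets ran from -0.11 to 0.75, the highest past 1.5-fold. Maea, the catalytic subunit gene known for its role in erythroblasts, had -0.20 on its brightest probe set and 0.23 on its other, and the list median was 0.16.

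The lists of ligases and associated proteins for the other members had medians closer to 0. None of 17 anaphase promoting complex genes passed 1.5-fold (median -0.01), with Cdc20 at 0.02 and the lowest at -0.56. None of 14 measured cullin-RING genes did on its brightest probe set (median -0.12, from -0.50 to 0.57). On other probe sets Eloc reached 0.82 and Cul4b 0.66, while no measured probe set of that list was 1.5-fold lower. Of 12 endoplasmic reticulum degradation genes none passed either (median 0.09, from -0.46 to 0.36). None of 11 chromatin and DNA damage genes did (median -0.03), though Hltf had -0.67 on another measured probe set. Of 10 HECT and U-box ligase genes only Herc2 passed, at 1092 with estradiol and 680 untreated (1.61-fold higher, list median -0.01).

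**Figure D4:**
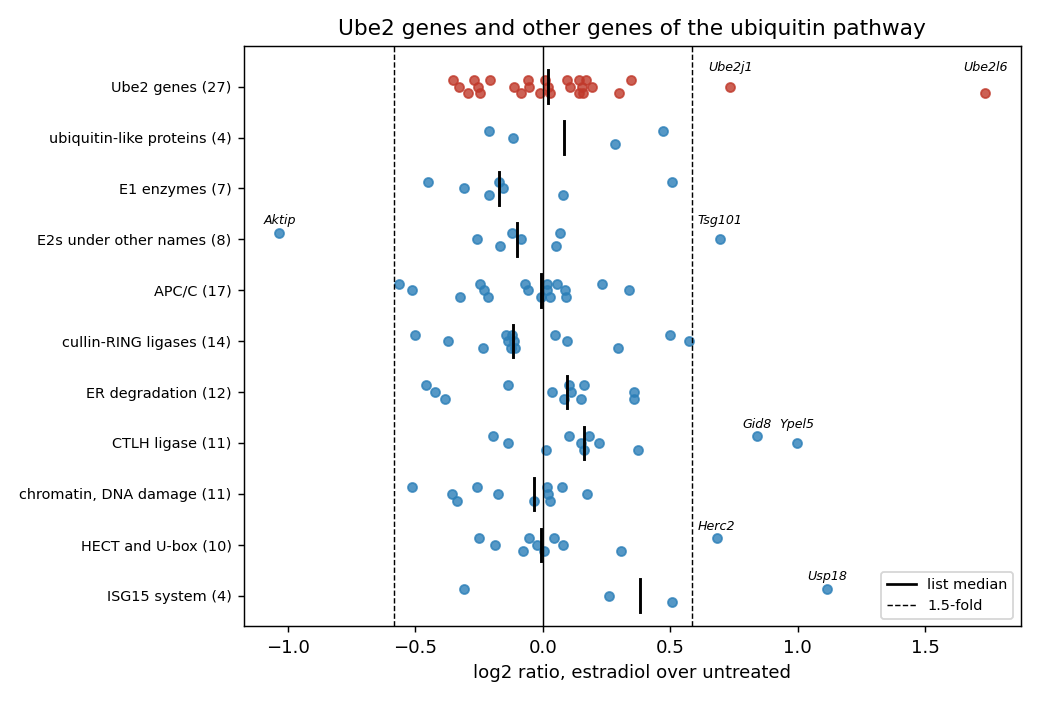
log2 ratio of estradiol over untreated for the 27 measured Ube2 genes (red) and for the measured genes of 10 pathway lists (blue), 1 point per gene, with a black bar at each list median and dashed lines at 1.5-fold. The named genes are those past 1.5-fold, of which Aktip at -1.03 is the one on the lower side.

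The deposited signals had a 2% trimmed mean of 500.0 on both arrays, so they came already at a common scale. That equality does not check whether the arrays are comparable. Their median signals were 99.0 with estradiol and 91.6 untreated. At or above the floor were 50.9% of probe sets with estradiol and 49.2% untreated. The Gata1 probe set read 1191 with estradiol and 1264 untreated, and it may or may not read the transcript of the fusion, so it does not check the labels. Of 5 erythroid markers 3 were at least 1.5-fold higher, and their summed signal was 13628 with estradiol and 7873 untreated. Of 7 mast cell and basophil markers 4 were measured, and they went both ways. Tpsab1 read 3418 with estradiol and 140 untreated (24.4-fold higher). Cpa3 was 5.77-fold, Gzmb 8.60-fold and Ms4a2 2.65-fold lower. Hdc read 152 with estradiol and 3.8 untreated (at least 1.59-fold higher), Fcer1a read 47.3 with estradiol and 144 untreated (at least 1.52-fold lower), and Mcpt8 was below the floor on both arrays. The summed signal of all 7 was 6065 with estradiol and 13271 untreated. Of the other lineages few markers were measured: Csf1r of 5 neutrophil and monocyte markers, Pf4 and Itga2b of 4 megakaryocyte markers and Cd8a of 4 lymphoid markers. The sums below therefore include signals under the floor. Those of neutrophil and monocyte markers were 609 with estradiol and 545 untreated, those of megakaryocyte markers 778 with estradiol and 672 untreated, and those of lymphoid markers 327 with estradiol and 378 untreated. The part of these markers in the values of Ube2l6 and Ube2j1 was not tested.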

How the data were processed

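Signal intensities, 1 per probe set on a linear scale, were deposited by the authors for 45101 probe sets on each of 2 arrays. The submitters' processing notes name GCOS as the software, without a version. Probe-level files and detection calls were not analysed. Signals were rescaled to a common 2% trimmed mean over probe sets that were not controls (factors 1.00006 for estradiol and 0.999941 for untreated). Genes were named through the platform annotation, and only probe sets with 1 symbol were used. A probe set below the floor (50th percentile) on 1 array gave a bound, with that array raised to the floor, and on both gave no ratio. With 1 array per group there was no test, and the number of arrays limits the precision. The members, the lists and the thresholds were chosen with earlier results of these data known. All members are named. Signals are given for those past 1.5-fold, those with bounds, the 5 brightest and those whose probe sets disagree by over 1, and further members were added as context. From each pathway list, genes past 1.5-fold are named, with a few others as examples. Alternatives covered scaling, floor and probe set choice. The steps were tested on simulated data. Tools were Python 3.11.15 with pandas 2.3.3, numpy 2.4.6, matplotlib 3.10.9 and statsmodels 0.14.6.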

Additional observations from a re-analysis of the deposited data

How the results depend on the processing

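No paired analysis was possible because each group held 1 array, and for the same reason no replicate could be left out. Under 9 alternatives, of which 8 were planned and the one without _s_at and _x_at probe sets was chosen after seeing the data, Ube2j1 stayed at least 1.5-fold higher in all. Ube2l6 did so in 8 as a measured value, from 1.62 to 1.74 on the log2 scale. With a floor at the 70th percentile only a bound was left for it, at least 1.88-fold higher. Since only measured values are counted, the number of members at least 1.5-fold higher was then 1 and at 2-fold 0. With a floor at the 30th percentile 1 member, Ube2cbp, was at least 1.5-fold lower. With no floor and 16 added to each signal, Ube2d2b was also called higher, at signals far below the floor. Scaling to a common median moved the median of all genes to -0.11. The median of the members moved by less than 0.25 throughout. Of 240 values for single members 4 moved by more than that. Many of the 240 could hardly move, since another floor leaves a measured ratio as it was and the deposited signals were almost at the common scale. A reversed call was possible only for Ube2l6 and Ube2j1, the 2 members called, and 0 occurred. The 4 moved values were those of Ube2w (0.25 by quantile normalization, 0.28 by loess, -0.05 as the median over probe sets) and Ube2r2 (0.26 as that median). Both are genes with disagreeing probe sets.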
